A study of Mus musculus with 18 samples.

Results

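Dipeptidyl peptidase 4 (CD26, encoded by Dpp4) is the surface marker that was used to divide normal mammary fibroblasts (NFs) into CD26- and CD26+ cells. It was examined here together with 9 genes that mark progenitor-like fibroblasts in many tissues (Pi16, Ly6c1, Ly6a, Cd34, Cd55, Anxa3, Cd248, Thy1 and Pdpn). The 10 genes were found by symbol in a table of 55486 genes, each as 1 row. All 10 passed the filter on low counts and were tested among 14273 genes, Dpp4 mainly through its counts in CD26+ NFs in tumour medium.

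The 18 libraries were bulk RNA-seq of cultured mouse NFs on the FVB/n background. CD26- NFs (3 libraries) and CD26+ NFs (3 libraries) were kept in control medium, and CD26- NFs (6 libraries) and CD26+ NFs (6 libraries) in conditioned medium (CM) of tumour lines, in every case for 7 days. The 6 tumour lines (13-MCB-17, 10-SJK-221, 18-MCB-12, 13-MCB-44, 13-MCB-90 and 13-MCB-138) came from mouse mammary tumours in which WapCre had deleted floxed Cdh1, among other alleles, in the epithelium, and each line's medium was given to 1 culture of CD26- NFs and 1 of CD26+ NFs. Per the study's methods, the NFs came from female mice of 8 to 16 weeks that carried no WapCre (floxed alleles without recombinase, or mTmG), were sorted from pooled glands as cells without EpCAM, CD49f, CD45 and CD31 on their surface, and were used after some passages in culture. The labels do not say which donor pool gave which library, so p-values measure the spread between these libraries, which may be partly technical. In bulk RNA, fewer cells of a kind and less RNA per cell cannot be told apart.

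DPP4 is a membrane-bound serine protease that removes dipeptides from the amino end of chemokines and peptide hormones, CXCL12 among them. In connective tissue, fibroblasts that carry DPP4 and PI16 (peptidase inhibitor 16) lie around vessels and in the adventitia and are described as a reserve from which specialised fibroblasts arise, next to a COL15A1+ kind that contacts basement membrane. LY6A (Sca-1), LY6C1, CD34 and THY1 are surface proteins long used to sort mesenchymal progenitors. CD55 shields cells from complement, ANXA3 is a calcium-dependent phospholipid-binding protein, CD248 (endosialin) is a stromal C-type lectin receptor, and PDPN (podoplanin) is a mucin-type glycoprotein that governs contractility of fibroblasts through ezrin and moesin.

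Libraries held between 9725723 and 14585349 counts, no pair of libraries within a group agreed within sampling noise (chi-square per degree of freedom 3.1 or more, and 21 to 56.5 for pairs with the 13-MCB-138 culture of CD26+ NFs against at most 28.9 for any other pair), and each of the 18 libraries had its nearest neighbour in its own group. The fibroblast label was checked against markers. In group mean, Col1a1, Col1a2, Col3a1, Vim, Pdgfra and Pdgfrb were each at 222 CPM or more, lowest for Pdgfra in CD26- controls. Dcn (112 to 3570 CPM), S100a4 (67.1 to 160 CPM), Lum (11.4 to 63.0 CPM) and Fap (3.27 to 13.1 CPM) reached lower levels. The sum of 7 immune markers was 14.6 to 29.7 CPM, mostly Csf1r, with Cd68 and Lyz2 detected. Ptprc, Itgam and Cd3e were at or under the level of 3 counts. Epithelial markers were present in spite of the sort: the summed level of 8 luminal and pan-epithelial genes was 4370 to 4910 CPM (counts per 1000000) in CD26- controls and 3080 to 4880 CPM in CD26- NFs in CM, against 613 to 1210 CPM in CD26+ controls and 619 to 1510 CPM in CD26+ NFs in CM. All 7 of these 8 that were tested were lower in CD26+ NFs in either medium, with Elf5 at or near 0 and untested. Their means in CD26- controls ran from 0.128 CPM (Elf5) to 1530 CPM (Krt18), and 4 basal epithelial genes summed to 638 to 823 CPM there. The part of the epithelial markers in the differences between CD26+ and CD26- NFs below was not tested.

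Reads of 65 bases cannot always tell the members from their relatives, which matters most for Ly6c1. Of the different 65-base windows in its annotated transcripts, 24.4% also occurred in transcripts of Ly6c2 or Ly6a. Its coding sequence of 393 bases differs from that of Ly6c2 at 9 bases (97.7% identity). The window with the most differences, 6 of 65 bases at the start of the coding sequence in exon 2 of either gene, is shown because it is where a read can be assigned. The differing bases are in capitals (GENCODE M21, GRCm38, minus strand, Ly6c1 at chr15:75048447-75048511 and Ly6c2 at chr15:75111603-75111667).
Ly6c1: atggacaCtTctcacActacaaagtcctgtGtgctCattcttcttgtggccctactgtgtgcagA
Ly6c2: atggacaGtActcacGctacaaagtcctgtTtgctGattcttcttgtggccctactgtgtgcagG
Ly6c2 itself received 59 counts over all 18 libraries, against 3990 for Ly6c1. Shared windows made up 11.3% for Ly6a and 6.35% for Cd55, whose near copy Cd55b received 3 counts in all. For the other members the share was at most 1.39% (Anxa3), and Dpp4, Cd248, Thy1 and Pdpn shared no window with another gene. Whether counting used strand is not given in the sources used here. The annotated genes that overlap Dpp4, Cd34, Cd55 and Anxa3 and are in the table received at most 7 counts in a library.

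The members spanned a wide range of levels. Per kilobase of annotated exon, in CD26+ NFs in CM, Pdpn (258 CPM per kb), Ly6a (210 CPM per kb), Anxa3 (80.5 CPM per kb), Cd248 (76.2 CPM per kb) and Thy1 (61.9 CPM per kb) were the abundant ones. Ly6c1 (20.2 CPM per kb), Pi16 (6.42 CPM per kb), Cd55 (3.67 CPM per kb) and Cd34 (1.38 CPM per kb) were lower, and Dpp4 (0.56 CPM per kb) was lowest. In CD26- controls the order was led by Anxa3 (140 CPM per kb) and Ly6a (93.3 CPM per kb), and Pi16 (0.0539 CPM per kb) and Dpp4 (0.0126 CPM per kb) were last. The gene named for the sort was the least abundant member per kilobase in all 4 groups, with at most 104 counts in a library.

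**Figure D1:**
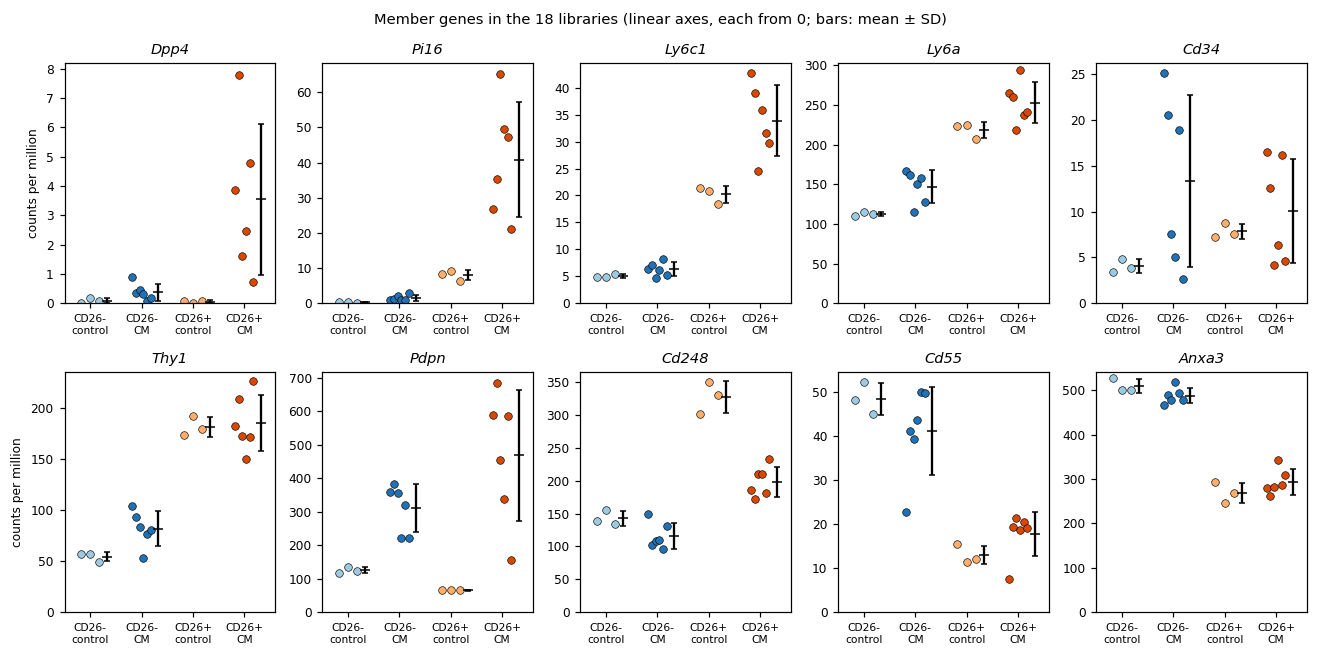
Level of each member in CPM (linear axes from 0) in every library of the 4 groups, with the mean and SD of each group as bars (3 control and 6 CM libraries per population). Dpp4 is near 0 outside CD26+ NFs in CM, where it runs from 0.715 to 7.80 CPM; Cd55 and Anxa3 are higher in CD26- NFs, and Pi16, Ly6c1, Ly6a, Thy1 and Cd248 are higher in CD26+ NFs.

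The comparison of CD26+ with CD26- NFs in control medium asked whether the sorted populations still differed in these genes after culture. Of the 10 members, 5 were higher and 3 lower in CD26+ NFs (edgeR, false discovery rate (FDR) under 0.05), in a comparison where 50.3% of all tested genes passed, 25% higher and 25.4% lower. The median log2 difference of the members was 0.96, against 0.0064 over all tested genes. Pi16 and Ly6c1 differed most, and Dpp4 itself was at background in either population.

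Dpp4 (ENSMUSG00000035000, chr2:62330073-62412231, minus strand) had 0, 2 and 1 counts in the 3 CD26- controls and 1, 0 and 1 counts in the 3 CD26+ controls. No library exceeded 0.171 CPM, every value was under the 3 counts taken as the detection limit, and the groups overlapped. The fitted log2 difference was -0.59 with a 95% interval from -5.01 to 3.84 (FDR 0.839), so that a difference was not detectable at this depth. The RNA of the sort marker was too scarce to compare in these cultures. By flow cytometry, which measures protein, the study reported a rapid loss of CD26 from CD26+ NFs in culture. Whether that loss and the low RNA go together was not tested.

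Pi16 (ENSMUSG00000024011, chr17:29317680-29330593, plus strand), which encodes a cell surface protein of the CAP family, was at 0.484, 0.342 and 0.203 CPM in CD26- controls (3 to 5 counts) and at 8.18, 9.19 and 6.38 CPM in CD26+ controls (86 to 124 counts). The groups did not overlap, and the log2 difference was 4.56 ± 0.63 (SE, FDR 1.24e-05). Pooled over libraries the ratio was 24.3 with a 95% interval from 13.7 to 47.5 that covers counting error only. It was the 1 member that also passed the study's limit of a log2 difference over 2 in size, beside 5.97% of all genes.

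Ly6c1 (ENSMUSG00000079018, chr15:75044018-75048830, minus strand) was at 4.94, 4.87 and 5.41 CPM in CD26- controls and at 21.4, 20.8 and 18.5 CPM in CD26+ controls, a log2 difference of 1.99 ± 0.20 (FDR 4.92e-07). Its neighbour Ly6a (chr15:74994877-74998031, minus strand), the gene of Sca-1, was at 109 to 116 CPM and at 207 to 225 CPM, a log2 difference of 0.96 ± 0.12 (FDR 4.30e-06). Neither gene's groups overlapped. Thy1 (chr9:44043384-44048579, plus strand), a glycosylphosphatidylinositol-anchored immunoglobulin-like protein, was at 57.3, 56.6 and 49.4 CPM against 173, 192 and 179 CPM, a log2 difference of 1.74 ± 0.18 (FDR 6.06e-07). Cd248 (chr19:5068078-5070682, plus strand) was at 138, 156 and 134 CPM against 301, 350.1 and 330.2 CPM, a log2 difference of 1.20 ± 0.14 (FDR 1.78e-06). All libraries of CD26+ NFs lay above those of CD26- NFs for these 4 genes. The share of all tested genes without overlap was not computed, here or in later comparisons.

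The opposite direction was found for the complement regulator Cd55, for Anxa3 and for Pdpn. Cd55 (chr1:130439027-130462744, minus strand) was at 48.1, 52.3 and 44.9 CPM in CD26- controls and at 15.5, 11.5 and 12.2 CPM in CD26+ controls, a log2 difference of -1.89 ± 0.29 (FDR 3.48e-05). Anxa3 (chr5:96793339-96845966, plus strand) was at 526.4, 501.2 and 499.5 CPM against 292, 247 and 268 CPM, a log2 difference of -0.92 ± 0.08 (FDR 1.38e-07). Pdpn (chr4:143267431-143299564, minus strand) was at 118, 135 and 124 CPM against 66.1, 65.5 and 65.3 CPM. None of these ranges overlapped, but the Pdpn difference of -0.94 ± 0.36 on the log2 scale (FDR 0.0381) passed narrowly and was lost when any 1 of the 6 control libraries was left out (FDR 0.059 to 0.0895). Over all 23 alternative fits, by other settings or without 1 library, it passed in 17, with FDRs from 7.6e-08 to 0.0895. Cd34 (chr1:194938819-194961279, plus strand), a sialomucin of progenitors and vessels, was at 3.39, 4.87 and 3.86 CPM against 7.20, 8.74 and 7.57 CPM. Its ranges did not overlap either, yet the log2 difference of 0.95 ± 0.71 did not pass (FDR 0.282) with the spread shared over 4 groups, and passed when only these 2 groups were fitted (FDR 0.000296).

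Tumour CM was then compared with control medium within CD26+ NFs, to ask how the marker genes respond to factors from tumour cells. Of the 9 members other than Dpp4, 3 rose (Pdpn, Pi16 and Ly6c1) and 1 fell (Cd248), beside 28.6% of all tested genes, 15.2% higher and 13.4% lower. Pdpn and Pi16 also passed a log2 difference of 2, beside 2.01% of all genes. Dpp4 passed the filter on low counts through its values in this group and so had to differ, and it is described without a test. The median log2 difference of the 10 members, Dpp4 included, was 0.41, against -0.0040 over all genes. Without Dpp4 the middle value of the 9 was that of Cd34, 0.36. The sum of the luminal and pan-epithelial markers overlapped between these groups, and none of the 7 tested passed in either direction. Of 4 basal epithelial markers, 1 fell (Trp63, -1.14 ± 0.41, FDR 0.0465, a call lost in 12 of 18 fits without 1 library), and the basal sum overlapped (199 to 284 CPM in controls and 86.5 to 321 CPM in CM). The part of the basal markers was not tested.

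Dpp4 had 51, 104, 19, 31, 54 and 8 counts in the CM libraries of 13-MCB-17, 10-SJK-221, 18-MCB-12, 13-MCB-44, 13-MCB-90 and 13-MCB-138, or 0.715 CPM at lowest, 3.16 CPM at the median and 7.80 CPM at highest. The control libraries held 2 counts together. All 6 CM libraries lay above all 3 controls. Set against the level of 3 counts in a control library, the mean was at least 14.6-fold higher. In absolute terms the level stayed low, with Dpp4 the least abundant member in this group too.

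Pdpn rose from 65.3 to 66.1 CPM in controls to a lowest value of 157 CPM, a median of 521 CPM and a highest value of 686 CPM in CM, a log2 difference of 2.84 ± 0.35 (FDR 1.84e-05). The 6 CM libraries lay above the controls, with the 13-MCB-138 library lowest. Pi16 rose from 6.38 to 9.19 CPM to a lowest value of 21.1 CPM, a median of 41.3 CPM and a highest value of 65.0 CPM, a log2 difference of 2.37 ± 0.32 (FDR 3.98e-05). Ly6c1 rose from 18.5 to 21.4 CPM to a lowest value of 24.6 CPM, a median of 33.7 CPM and a highest value of 42.7 CPM, a log2 difference of 0.75 ± 0.15 (FDR 0.00168). These groups did not overlap. Cd248 fell from 301 to 350.1 CPM to a lowest value of 172 CPM, a median of 198 CPM and a highest value of 232 CPM, a log2 difference of -0.72 ± 0.12 (FDR 0.000193), again with no overlap.

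The other 5 members did not pass in CD26+ NFs. Thy1 (log2 difference 0.03, 95% interval -0.28 to 0.34, FDR 0.908), Anxa3 (0.12, -0.026 to 0.27, FDR 0.208) and Ly6a (0.21, -0.0043 to 0.43, FDR 0.134) had narrow intervals. Those of Cd55 (0.45, -0.11 to 1.002, FDR 0.221) and Cd34 (0.36, -0.83 to 1.56, FDR 0.677) were wide. Without the 13-MCB-17 culture of CD26+ NFs the log2 difference of Cd55 was 0.60 ± 0.20 (FDR 0.033).

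The stretches of 200 bases before the transcription start are shown for Dpp4, Ly6c1 and Pdpn to place the response beside its promoters. That of Pi16 lies wholly within an annotated exon of a longer Pi16 transcript and is not printed. The sequences are from RefSeq (GRCm38.p6), which held a promoter for 6 of the 10 members. They are Dpp4 at chr2:62412232-62412431, Ly6c1 at chr15:75048838-75049037 (the outer of 2 starts) and Pdpn at chr4:143299565-143299764, each on the minus strand. Capitals mark matches, on either strand, to any of 7 motifs: AP-1 (TGANTCA), STAT (TTCNNNGAA), NF-kB (its consensus), C/EBP (TTNCNNAA), TEAD (GGAATG), the TATA box (TATAAA) and the GC box (GGGCGG).
Dpp4: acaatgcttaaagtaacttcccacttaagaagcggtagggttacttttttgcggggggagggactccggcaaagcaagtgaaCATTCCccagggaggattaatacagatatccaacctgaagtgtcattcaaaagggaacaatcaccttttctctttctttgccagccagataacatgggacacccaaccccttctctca
Ly6c1: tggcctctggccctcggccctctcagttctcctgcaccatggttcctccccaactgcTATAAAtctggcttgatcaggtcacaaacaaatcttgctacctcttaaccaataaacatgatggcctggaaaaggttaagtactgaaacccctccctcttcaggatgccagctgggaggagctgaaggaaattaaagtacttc
Pdpn: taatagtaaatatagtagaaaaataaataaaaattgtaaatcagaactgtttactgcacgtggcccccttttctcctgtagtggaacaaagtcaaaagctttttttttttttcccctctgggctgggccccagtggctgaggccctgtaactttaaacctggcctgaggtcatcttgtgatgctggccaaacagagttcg
Dpp4 holds 1 match, to TEAD on the opposite strand at 118 to 113 bases before the start, a motif that 10.1% of 32851 promoters hold in the same window. Ly6c1 holds 1 match, to the TATA box at 143 to 138 bases before this start, found in 9.96% of promoters. Pi16 has 1 match to C/EBP (30.0% of promoters), and Pdpn has none. No matches overlapped, and AP-1 (5.48% of promoters), STAT (5.49%), NF-kB (6.07%) and the GC box (31.0%) had no match in these 4 windows.

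In CD26- NFs, 3 members rose with tumour CM (Pdpn, Thy1 and Ly6a) and none passed as lower, beside 15.2% of all tested genes, 7.88% higher and 7.28% lower. At an unadjusted p under 0.05 there were 6 (30.4% of all genes), with Cd248 as the lower one, and DESeq2 called 5 (17% of all genes). The members' median log2 difference was 0.49, against 0.0052 over all genes, and none passed a log2 difference of 2 (0.904% of all genes). Pdpn rose from 118 to 135 CPM to a lowest value of 221 CPM, a median of 338 CPM and a highest value of 385 CPM, a log2 difference of 1.30 ± 0.32 (FDR 0.0123). Its groups did not overlap. The luminal and pan-epithelial sum overlapped between these groups and none of the 7 tested passed, whereas the basal epithelial sum was 638 to 823 CPM in controls and 251 to 540 CPM in CM, without overlap, and 1 of its 4 genes fell (Krt17, -1.16 ± 0.26, FDR 0.00720). The part of the basal markers in the 3 rises was not tested.

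Thy1 rose from 49.4 to 57.3 CPM to a lowest value of 52.7 CPM, a median of 82.1 CPM and a highest value of 104 CPM (log2 difference 0.59 ± 0.16, FDR 0.0195). Ly6a rose from 109 to 116 CPM to a lowest value of 115 CPM, a median of 154 CPM and a highest value of 167 CPM (log2 difference 0.38 ± 0.11, FDR 0.0209). For each of these genes 1 of the 6 CM libraries lay within the control range. The 3 calls rested on having all controls: with any 1 of the 3 CD26- controls left out, FDR was 0.0507 to 0.111 for Thy1 and 0.0523 to 0.0828 for Ly6a, and 0.058 and 0.0631 for Pdpn without replicate 1 or 3.

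Pi16 was higher in all 6 CM libraries (13 to 32 counts, 0.976, 1.08 and 2.83 CPM at lowest, median and highest) than in the 3 controls (3 to 5 counts). The pooled ratio was 4.49 (95% counting interval 2.47 to 8.94), and the log2 difference of 2.13 ± 0.76 did not pass with edgeR (FDR 0.0655) but did with DESeq2 (FDR 0.00151) and when only these 2 groups were fitted (FDR 0.018). Cd34 ranged from 2.65 to 25.1 CPM around a median of 13.2 CPM, with 1 library under and 5 above the control range (log2 difference 1.72 ± 0.63, FDR 0.0723 with edgeR and 0.037 with DESeq2). Dpp4 had 11, 5, 6, 4, 1 and 2 counts, and the groups overlapped (log2 difference 2.06, 95% interval -0.69 to 4.82, FDR 0.306).

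Neither the remaining progenitor marker nor the other surface genes passed in CD26- NFs. Ly6c1 had a log2 difference of 0.31 (95% interval -0.098 to 0.71, FDR 0.298), Anxa3 of -0.06 (-0.21 to 0.085, FDR 0.593) and Cd55 of -0.24 (-0.73 to 0.25, FDR 0.529). Cd248 was at 96.5, 109 and 149 CPM at lowest, median and highest in CM against 134 to 156 CPM in controls (log2 difference -0.30, -0.54 to -0.047, FDR 0.0989), and passed without the 13-MCB-17 culture (-0.38 ± 0.10, FDR 0.0242).

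**Figure D2:**
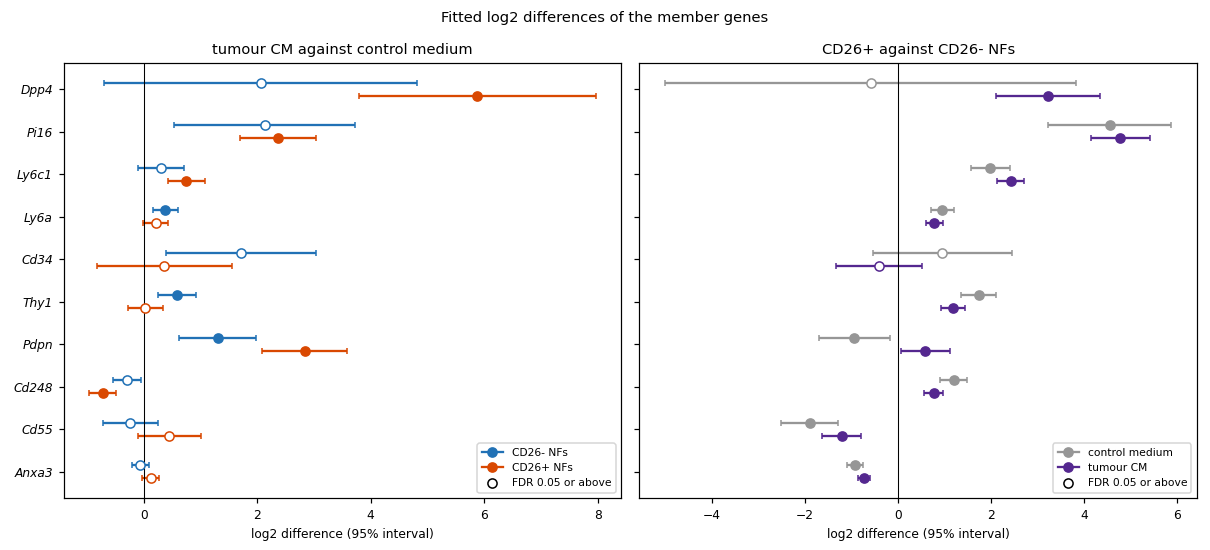
Fitted log2 difference of each member with its 95% interval, on the left for tumour CM against control medium in CD26- and CD26+ NFs and on the right for CD26+ against CD26- NFs in control medium and in tumour CM; filled points passed an FDR of 0.05, and Dpp4 entered the fit through CD26+ NFs in CM. Pdpn passed on the right in opposite directions in the 2 media, at -0.94 in control medium and 0.59 in CM. The filled points of Dpp4 are not read as tests.

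In tumour CM the populations differed in 8 of the 9 members other than Dpp4, 6 higher and 2 lower in CD26+ NFs, beside 58.6% of all tested genes, 29.3% in each direction. Dpp4, again described without a test, had a mean of 3.54 ± 2.56 CPM against 0.371 ± 0.281 CPM in CD26- NFs (SD, n = 6 each). It was higher in CD26+ NFs with the medium of each of the 6 lines, although 2 of the 6 CD26- libraries held no more than 2 counts and the lowest CD26+ value (0.715 CPM) lay under the highest CD26- value (0.881 CPM). The libraries held 267 counts in all in CD26+ and 29 in CD26- NFs.

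Pi16 was at 40.8 ± 16.2 CPM against 1.49 ± 0.757 CPM (SD, n = 6 each; log2 difference 4.79 ± 0.31, FDR 1.62e-09), and Ly6c1 at 33.9 ± 6.59 CPM against 6.30 ± 1.28 CPM (2.43 ± 0.14, FDR 4.55e-10). Of these members, Pi16 and Ly6c1 were past a log2 difference of 2 (4.16% of all genes). Thy1 (1.18 ± 0.12, FDR 3.49e-07), Ly6a (0.78 ± 0.08, FDR 4.15e-07) and Cd248 (0.77 ± 0.10, FDR 2.79e-06) were higher, and Cd55 (-1.21 ± 0.20, FDR 5.64e-05) and Anxa3 (-0.73 ± 0.06, FDR 1.43e-08) lower, with no overlap between groups for any of these 5. How many of all genes had groups without overlap was not counted. Pdpn was higher by 0.59 ± 0.25 on the log2 scale (FDR 0.0474) with overlapping groups, and this call was lost without most single libraries (FDR up to 0.131). Cd34 did not pass (-0.40, 95% interval -1.33 to 0.53, FDR 0.453).

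The test of whether CM acted differently on CD26+ and CD26- NFs was passed by 1 member with a positive difference (the response of CD26+ minus that of CD26- NFs) and by 0 with a negative one, beside 7.53% of all tested genes, 4.53% positive and 3.01% negative. None passed with a log2 difference over 2 (0.392% of all genes), and 3 members had an unadjusted p under 0.05 (25.2% of all genes). The member that passed was Pdpn, which rose by 1.53 ± 0.44 more on the log2 scale in CD26+ NFs (FDR 0.0410), from a lower control level and to a higher CM level. The call was lost in 12 of the 18 fits that left out 1 library (FDR up to 0.106), including each that left out a control. Calls were also gained, Thy1 without the 13-MCB-44 culture of CD26- NFs (-0.66, FDR 0.0201), and Thy1 (-0.63, FDR 0.0452) and Cd248 (-0.48, just under the limit) without the 13-MCB-138 culture of CD26+ NFs, where calls over all genes went from 1075 to 2349. Dpp4 (3.82, 95% interval -1.50 to 9.14) and Pi16 (0.23, -2.12 to 2.58) had intervals too wide to say whether they responded alike.

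CM line pairs the 2 populations, and with the line as a block 5 members passed, beside 17.6% of all genes in that fit. The block changed no member's call between the populations in CM (63% of all genes). Besides Pdpn these were Cd55 (higher by 0.68 ± 0.15, FDR 0.00798), and, with a negative difference (the response of CD26+ minus that of CD26- NFs), Cd34 (-1.29 ± 0.30, FDR 0.0103), Thy1 (-0.55 ± 0.13, FDR 0.0134) and Cd248 (-0.42 ± 0.13, FDR 0.033). Without the block their FDRs were 0.235, 0.336, 0.114 and 0.120 in the same order.

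The CM libraries were also compared by the tumour line of the medium. Each medium went to a single culture of each population, so line and batch of medium cannot be told apart. Among the 12 CM libraries, 2 of the 10 members varied with line (edgeR, F test over the lines with cell population as a term), beside 6.56% of 13344 tested genes. These were Cd34 (FDR 0.00838) and Cd55 (FDR 0.0105).

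Cd34 formed high and low lines. With the media of 13-MCB-17, 10-SJK-221 and 13-MCB-90 it was at 25.1, 20.6 and 18.9 CPM in CD26- NFs and at 16.5, 12.5 and 16.2 CPM in CD26+ NFs. With 18-MCB-12, 13-MCB-44 and 13-MCB-138 it was at 7.54, 5.03 and 2.65 CPM in CD26- NFs and at 4.22, 6.34 and 4.65 CPM in CD26+ NFs. The former lines gave values above the controls of either population and the latter gave CD26+ NFs values under all of their controls, so that the mean CM response of this gene joined increases and decreases. Its range over lines was 9.45-fold in CD26- NFs and 3.90-fold in CD26+ NFs, against 1.44-fold and 1.21-fold among the controls.

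Cd55 set 1 line apart. The 13-MCB-17 medium gave 22.7 CPM in CD26- NFs and 7.66 CPM in CD26+ NFs, the lowest value of each group. The other 5 lines gave 39.4 to 50.0 CPM and 18.8 to 21.5 CPM, close together within each population. Without the 13-MCB-17 culture of CD26+ NFs the line effect on Cd55 no longer passed (FDR 0.0518).

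Pdpn and Dpp4 had the same lowest line in CD26+ NFs, 13-MCB-138, and the same highest line, 10-SJK-221. Relative to the control mean, Pdpn was 8.99, 10.5, 6.93, 5.15, 8.94 and 2.39 times as high in CD26+ NFs with 13-MCB-17, 10-SJK-221, 18-MCB-12, 13-MCB-44, 13-MCB-90 and 13-MCB-138, and 2.86, 3.06, 2.83, 1.77, 2.55 and 1.76 times as high in CD26- NFs. With 13-MCB-138 alone it was lower in CD26+ than in CD26- NFs, by a ratio of 0.709. Neither gene passed the line test with edgeR (Pdpn FDR 0.0726, Dpp4 FDR 0.119). Pdpn passed with DESeq2 (FDR 2.15e-05, 10.3% of all genes), without the 13-MCB-138 culture of CD26- NFs (FDR 0.0006, 15.4%) or of CD26+ NFs (FDR 0.00536, 10.6%), and both genes passed without the filter on low counts (FDR 3.5e-08 and 0.000126, 8.33%). Over all members, the same line was lowest in CD26- and CD26+ NFs for 5 and highest for 3. The share of all genes with such a shared line was not computed. Same-line libraries deviated together over all tested genes as well (r = 0.247 to 0.406).

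**Figure D3:**
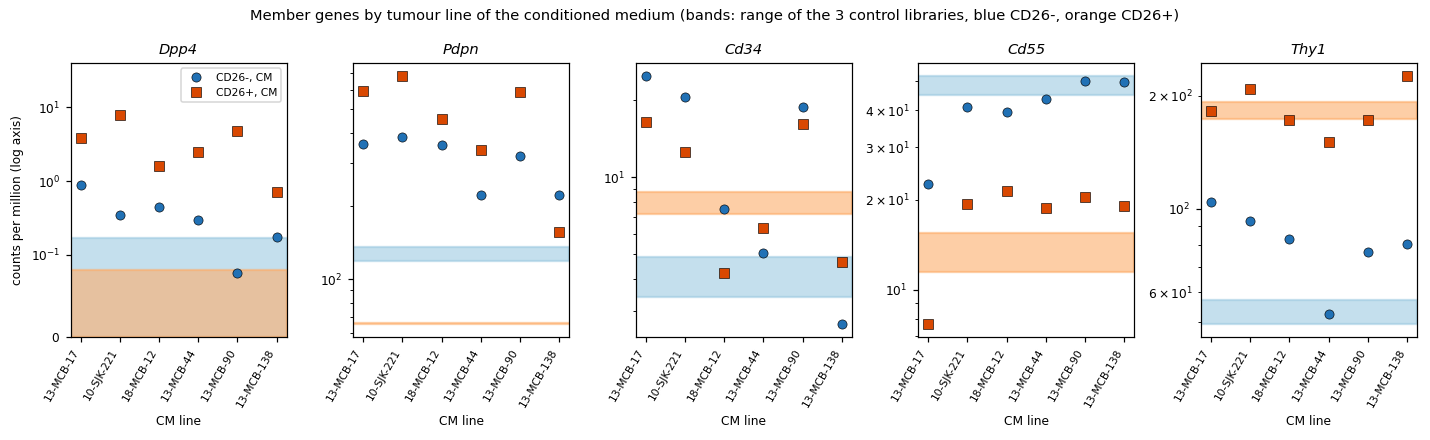
Level in CPM (log axis, for Dpp4 linear under 0.1) of 5 members by tumour line, circles for CD26- and squares for CD26+ NFs, with bands for the range of the 3 controls of each population. Cd34 is high with 3 lines in either population, Cd55 is lowest with 13-MCB-17, and Pdpn in CD26+ NFs is lowest with 13-MCB-138, at 157 CPM.

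Members that ranked alike over the 18 libraries were mostly those that differed by population. These correlations are descriptions on log2 CPM over libraries that share groups and lines. Ly6c1 and Ly6a (r = 0.962), Pi16 and Ly6c1 (r = 0.928) and Thy1 and Ly6c1 (r = 0.907) ran together, and Anxa3 ran against Thy1 (r = -0.937) and Ly6c1 (r = -0.913). With group means removed, over the 12 CM libraries, Ly6c1 and Ly6a (r = 0.796), which share 127 windows of read length, and Dpp4 and Pdpn (r = 0.788 here and 0.820 over the 18 libraries) ran together. Ly6c1 and Cd34 did so here (r = 0.664) and less over the 18 libraries (r = 0.242), as did Cd34 and Pdpn (r = 0.662 and 0.467). Pi16 and Ly6c1 went from r = 0.928 over the 18 libraries to r = -0.590.

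The genes with the profile most like each member over the 18 libraries were S1pr2 for Dpp4 (r = 0.954), C1ra for Pi16 (r = 0.984), Sema6d for Ly6c1 (r = 0.973), Ly6c1 for Ly6a (r = 0.962), Nme4 for Cd34 (r = 0.952) and Zfp52 for Cd55 (r = 0.964). Those for the others were Slc9a3r1 for Anxa3 (r = 0.991), Acat1 for Cd248 (r = 0.972), Nrn1 for Thy1 (r = 0.990) and Serpinb2 for Pdpn (r = 0.995). C1ra, a protease of the complement cascade, was at 5.85, 13.6, 37.1 and 93.7 CPM in CD26- control, CD26- CM, CD26+ control and CD26+ CM. Serpinb2, a plasminogen activator inhibitor, was at 216, 1197, 67.8 and 2301 CPM in the same order, thus low in CD26+ controls and highest in CD26+ NFs in CM as Pdpn was.

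Genes that accompany Pi16 in fibroblasts moved in both directions. Of 24 such companions, 9 had higher and 7 had lower levels in CD26+ than in CD26- controls, and for the CM cultures the counts were 12 and 9. Over all genes 50.3% and 58.6% passed, about equally in each direction. The matrix proteins Dpt (log2 difference 2.59 ± 0.19, FDR 1.65e-08) and Emilin2 (1.06 ± 0.12, FDR 1.20e-06) were higher in CD26+ controls. Procr, the endothelial protein C receptor, was lower (-1.55 ± 0.18, FDR 2.01e-06).

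Under CM, CD26+ NFs had 6 of the 24 risen and 8 fallen, CD26- NFs 1 risen and 4 fallen (28.6% and 15.2% of all genes passed). In CD26+ NFs the collagen-processing factor Pcolce2 fell by 2.09 on the log2 scale (FDR 3.56e-06), and the chemokine scavenger Ackr3 (1.53 ± 0.23, FDR 0.000103) and Procr (1.02 ± 0.16, FDR 0.000197) rose. In CD26- NFs Efhd1 (-1.39 ± 0.26, FDR 0.00241), Wnt2 (-1.22 ± 0.23, FDR 0.00273) and Pcolce2 (-1.0005 ± 0.21, FDR 0.00460) fell. The alarmin Il33 was at 10.7 CPM in CD26+ controls and 109 CPM in CM, against 9.42 and 7.32 CPM in CD26- NFs, and its response differed between populations (3.71 ± 0.83, FDR 0.0137, and 0.0516 without 1 CD26- control). The median log2 difference of the list was -0.22 in CD26+ and -0.28 in CD26- NFs.

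The companions of the COL15A1+ state mostly rose in CD26+ NFs. Of 12 genes, 7 rose and 0 fell with CM in CD26+ NFs (median log2 difference 0.87), against 3 and 2 in CD26- NFs (median -0.14), where 15.2% of all genes rose in CD26+ and 7.88% in CD26- NFs. In CD26+ NFs these included the flavin monooxygenase Fmo2 (6.92 ± 0.96, FDR 5.47e-05), the chemokine Cxcl12 (2.67 ± 0.38, FDR 6.14e-05) and the enkephalin precursor Penk (2.05 ± 0.35, FDR 0.000406). Fmo2 rose in CD26- NFs as well (4.97 ± 0.94, FDR 0.00244), while Col18a1 (-0.67 ± 0.17, FDR 0.0152) and Col15a1 itself (-0.60 ± 0.16, FDR 0.0173) fell. Either of these falls was lost in 2 of the 3 fits without 1 CD26- control (FDR up to 0.0725 for Col18a1 and 0.0806 for Col15a1). Col15a1 did not pass with CM in CD26+ NFs (-0.30, FDR 0.175). Between populations, 6 were higher and 3 lower in CD26+ controls (25% and 25.4% of all genes), and 8 were higher and 0 lower in CM (29.3% in each direction). Col15a1 was among the higher genes in CD26+ NFs in control medium (0.91, FDR 0.000614) and in CM (1.21, FDR 5.99e-07).

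**Figure D4:**
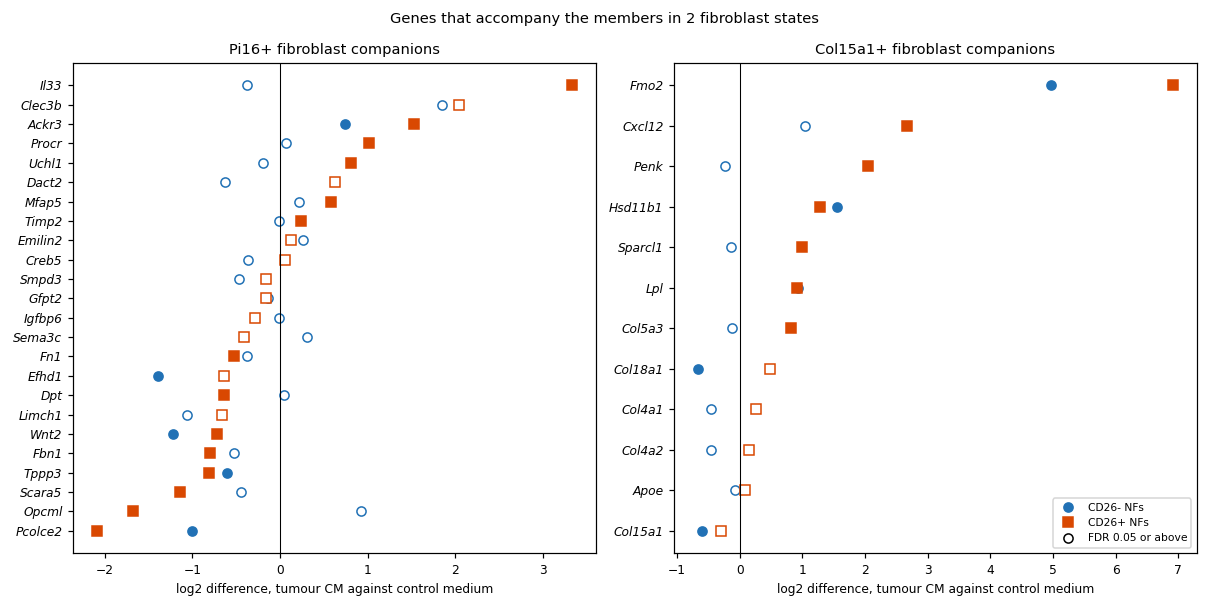
Log2 difference between tumour CM and control medium for the 24 Pi16+ and 12 Col15a1+ fibroblast companions, circles for CD26- and squares for CD26+ NFs, filled where the FDR was under 0.05. In CD26+ NFs the left list spreads to both sides, from Pcolce2 at -2.09 to Il33 at 3.34, and the right list lies mostly above 0, up to Fmo2 at 6.92.

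Of 7 tested peptidase relatives, 4 were higher and 1 lower in CD26+ controls, CM raised 2 and lowered 2 in CD26+ NFs, and it raised 1 and lowered 2 in the CD26- cells. Over all genes, 50.3%, 28.6% and 15.2% passed in these comparisons. The closest relative, Fap (fibroblast activation protein), fell by 0.89 on the log2 scale in CD26+ NFs (FDR 0.00398) and by 1.08 in CD26- NFs (FDR 0.00558, and 0.0688 without 1 CD26- control, where none of these relatives passed). Of 7 tested substrates and partners, 4 rose in CD26+ NFs, among them the substrates Ccl11 (3.19 ± 0.28, FDR 6.15e-07) and Cxcl12 (given above), and caveolin-1, a binding partner (Cav1, 0.73 ± 0.10, FDR 4.81e-05). In CD26- NFs 1 rose, Ccl11 (2.74 ± 0.26, FDR 3.16e-05), and 1 fell. The response to CM was larger in CD26+ NFs for Cav1 (by 0.57 ± 0.14, FDR 0.0201, a call lost in 3 of 18 fits without 1 library, each a control). It was larger for Cxcl12 too (by 1.63 ± 0.48, FDR 0.0476), a call lost in 15 of 18 such fits.

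Relatives of the other members did not all follow them. Among 5 tested Ly6 family genes, Ly6e (-1.01 ± 0.11, FDR 1.27e-06) and Lypd3 (-2.08 ± 0.31, FDR 2.17e-05) were lower in CD26+ controls, where Ly6c1 and Ly6a were higher, and Lypd1 was higher (1.55 ± 0.33, FDR 0.000872) and fell with CM in CD26+ NFs (-2.35 ± 0.29, FDR 1.50e-05). The C-type lectin relatives of Cd248 split, with Clec14a higher (2.69 ± 0.30, FDR 1.08e-06) and Cd93 (-2.99 ± 0.19, FDR 4.33e-09) and thrombomodulin (Thbd, -1.90 ± 0.23, FDR 3.05e-06) lower in CD26+ controls. Clec14a fell with CM in CD26+ NFs (-1.003 ± 0.22, FDR 0.00242), as Cd248 did, and Thbd rose in CD26+ (2.36 ± 0.22, FDR 9.78e-07) and CD26- NFs (0.75 ± 0.20, FDR 0.0168, lost in 2 of the 3 fits without 1 CD26- control, FDR up to 0.0933). Of 9 tested annexins, 4 were lower and 1 higher in CD26+ controls, a share near the 50.3% of all genes. They included Anxa8 (-2.34 ± 0.31, FDR 8.53e-06) and Anxa1 (-0.66 ± 0.09, FDR 8.72e-06) as lower genes.

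Of 5 tested partners through which podoplanin acts, 4 were lower and 1 higher in CD26+ controls, where 25.4% of all genes were lower and 25% higher. The lower ones included Ezr (ezrin, -1.83 ± 0.20, FDR 1.11e-06), Cd44 (-1.17 ± 0.12, FDR 3.65e-07) and Msn (moesin, -0.80 ± 0.06, FDR 4.94e-08). In CM, where Pdpn was higher in CD26+ NFs, 4 were lower and 0 higher (29.3% of all genes in each direction). Of the CAP family relatives of PI16, 5 were tested. Pi15 rose with CM in CD26+ (1.03 ± 0.21, FDR 0.00170) and CD26- NFs (0.82 ± 0.21, FDR 0.0163, lost without any 1 of the 3 CD26- controls, FDR up to 0.0673), and Glipr2 was higher (0.96 ± 0.13, FDR 9.86e-06) and Glipr1 lower (-1.42 ± 0.33, FDR 0.00168) in CD26+ controls. Among complement regulators Cd59a, like Cd55, was lower in CD26+ controls (-1.13 ± 0.31, FDR 0.00581) and Cr1l higher (0.27 ± 0.06, FDR 0.00212), and of the CD34 relatives Podxl2 was higher (1.88 ± 0.23, FDR 3.20e-06) and Podxl lower (-1.80 ± 0.46, FDR 0.00331).

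Markers of other cells moved with population in several lists. Of 10 fibroblast markers, 8 were higher and 1 lower in CD26+ controls, and 4 rose and 5 fell with CM in CD26+ NFs against 3 and 2 in CD26- NFs. Over all genes 50.3%, 28.6% and 15.2% passed in these comparisons, and 58.6% between populations in CM. Of 4 basal epithelial markers 2 were lower in CD26+ NFs in either medium, and the mesothelial marker Msln was at 95.5 and 117 CPM in CD26- NFs in control medium and CM and lower in CD26+ NFs (10.8 to 34.2 CPM for the mesothelial sum over their libraries), with Upk3b and Lrrn4 at 0. Summed adipocyte markers were at most 1.15 CPM in CD26- NFs and 2.54 to 15.7 CPM in CD26+ NFs, mostly Plin1. Of 4 skeletal muscle markers, 3 rose with CM in CD26- NFs, with Des at 8.84 CPM and Myog at 5.36 CPM. Summed endothelial markers were at most 8.85 CPM, and 1 of 3 tested rose with CM in CD26- NFs. Schwann markers were at most 2.90 CPM. Pericyte markers summed to 53.7 to 63.9 CPM in CD26- controls and 24.6 to 52.7 CPM in CD26- NFs in CM. They summed to 23.6 to 28.9 CPM in CD26+ controls and 26.9 to 38.7 CPM in CD26+ NFs in CM. Of 3 tested pericyte markers, 2 were lower and 1 higher in CD26+ controls, and 1 fell with CM in either population. The response to CM differed for 2 (7.53% of all genes). Of 5 myofibroblast markers, 1 (Tpm2) was lower in CD26+ NFs in either medium and none passed with CM in either population. Their part in the members' differences was not tested.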

How the data were processed

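RNA was measured by stranded, polyA-selected, single-end sequencing of 65 bases in 18 libraries of cultured mouse NFs. The authors aligned reads with HISAT2 (2.1.0) to GRCm38 and counted them per gene with HTSeq, per the submitters' processing notes. The deposited values are raw read counts per gene. The annotation release and the strand setting of counting are not given in the sources used here, and gene coordinates in the table equal GENCODE M21 for all 10 members. Groups came from the sample labels.

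Counts were scaled by TMM, filtered by filterByExpr and tested with edgeR's quasi-likelihood F test (4.0.16, R 4.3.3) in 1 fit of the 4 groups, with Benjamini-Hochberg adjustment (FDR) over all tested genes and a limit of 0.05. Line was tested in the 12 CM libraries with cell population as a term. The scripts were tested on simulated counts. CPM used TMM-scaled totals, log2 CPM a prior count of 2, and values at or under 3 counts were taken as not detected. Totals of 9725723 to 14585349 counts and the number of libraries limit precision, and counting intervals cover counting error only.

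Same-line CD26- and CD26+ libraries deviated together from their group means in all 6 pairs (r = 0.247 to 0.406), and the labels name the shared medium, so the line was also fitted as a block. Group comparisons were also repeated with DESeq2 (1.42.0), with upper-quartile or RLE scaling, with no filter, with a log2 limit of 2 and without each library in turn, and those of 2 groups with only these groups. The line test was repeated with DESeq2, RLE scaling, no filter and without each CM library. The 95% intervals of log2 differences use the t distribution with the degrees of freedom of the edgeR fit. All 10 members are named. From each list of related or marker genes, up to 3 past the FDR with the smallest p and at least 5 CPM in a group were named, and marker genes by level. Likeness was Pearson's r among genes of at least 1 CPM in a group. Members and lists were chosen with earlier results of these data known. Part of the strain genotype is not reported here.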

Additional observations from a re-analysis of the deposited data

Results flagged for a closer look

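Within the 6 CM libraries of each population, Cd55 in the 13-MCB-17 culture stood apart from the others as the lowest value, at 22.7 CPM in CD26- NFs and at 7.66 CPM in CD26+ NFs. These were 2 of 20 groups of 6 values examined in this way, of which chance would set apart about 1 in 20. The response of Pdpn to CM differed between CD26+ and CD26- NFs by 1.53 on the log2 scale by the test of the difference itself, and this call was lost in 12 of 18 fits that left out 1 library.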

How the results depend on the processing

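Counts here include Dpp4, whose call in CD26+ NFs in CM the filter fixes. DESeq2 called 5 members for CM in CD26- NFs (17% of all genes) and 5 for CM line (10.3%). Requiring a log2 difference over 2 as well left 0 and 3 members for CM in CD26- and CD26+ NFs, 1 and 3 for population in control medium and in CM (2 in place of either 3 without Dpp4), and 0 for the difference in response. With the line as a replicate block 5 members passed for the difference in response (17.6% of all genes), and 9 (8 without Dpp4) still passed for population in CM (63%), where the block changed no call. Without the filter on low counts 9 members passed for CM line, where calls over all genes rose from 876 to 2475; the cause was not tested. With 1 library left out at a time, 0 to 4 members passed for CM in CD26- NFs (5.82% to 19.3% of all genes), 5 to 6 in CD26+ NFs (4 to 5 without Dpp4; 19.3% to 34.9%), 7 to 8 for population in control medium (42.7% to 52.4%), 8 to 9 in CM (7 to 8 without Dpp4; 55.3% to 59.3%), 0 to 3 for the difference (2.46% to 16.5%) and 2 to 5 for line (2.68% to 15.4%). The count of 0 in CD26- NFs came without replicate 1 (7.79% of all genes) or replicate 3 (5.82%). No call of a member changed direction under any of these alternatives. The fits of listed genes without 1 library and the counts without Dpp4 were chosen after seeing the data. Depth limits Dpp4 outside CD26+ NFs in CM and Pi16 in CD26- NFs.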
